A study of Mus musculus with 24 samples.

Results

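The genotype difference between Tcf7 cKO and WT CD8+ T cells was averaged with equal weight over 4 times, 0, 4, 8 and 24 h, from all 24 libraries of the series (12 cKO and 12 WT, from 6 mice). Each gene was tested for this mean difference (cKO minus WT) with time in the model and the libraries of 1 mouse allowed to be correlated. Of 23420 genes in the files, 11470 passed a filter on low counts. Of these, 194 (1.69%) were called, that is, had an adjusted p under 0.05 (limma with voom, Benjamini-Hochberg over all 11470 genes). A called gene is termed steady here when the difference at each of the 4 times had the sign of the mean and at least 0.5 of its size, and when its difference was not called uneven over time. Steady genes numbered 83. Of them, 53 (0.462% of genes tested) were called at none of the 4 single times, by limma or by edgeR, and these are described first.

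The cKO mice (mice 1 to 3) carried E8i-cre, floxed Tcf7 alleles (Tcf7FL/FL) and the OT-I T cell receptor transgene (OTI+). The WT mice (mice 4 to 6) were Tcf7FL/FL and OTI+ without the cre, so effects of the cre transgene and of the deletion cannot be told apart. E8i-cre is driven by a Cd8a enhancer and acts in CD8 T cells, and OT-I is a single transgenic receptor for an ovalbumin peptide. Cells came from spleen and lymph nodes by CD8 microbeads. Cells for 0 h were taken before plating. The rest were cultured in wells that had anti-CD3 and anti-CD28 (1 ug/mL) bound to the plastic, in medium holding IL2 (6 ng/mL). A library was made by Smart-seq2 from 1000 sorted cells, a method that covers whole transcripts and tags no molecules.

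TCF1, the product of Tcf7, binds DNA through an HMG box and, with its relative LEF1, maintains naive and stem-like T cells. It recruits both activators and repressors, and in CD8 T cells it is known for holding back effector genes such as those of cytotoxic granules. The series title also names CXCR6, a receptor for the chemokine CXCL16, and CD28, the co-stimulatory receptor that the plated antibody engages. Because the Tcf7 count of a library sums reads over all exons, floxed or not, it cannot serve as a check of the deletion, and the groups follow the labels.

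The expected counts of a library totalled 5846265 to 9700397, and 13659 to 17168 genes had a count. Levels of the T cell markers Cd8a (94.4 to 442 TPM) and Cd3e (86.5 to 389 TPM) were high in all 24 libraries. Cd4 was at most at 0.47 TPM and Lyz2 at most at 0.7. The summed TPM of the B cell markers ranged from 3.78 to 53.4 in cKO and from 1.6 to 37.7 in WT, that of the myeloid markers from 1.32 to 6.53 and from 1.79 to 5.54, and that of the NK and gamma-delta markers from 2.17 to 20.2 and from 1.86 to 37.95. For the CD4 and regulatory T cell markers these sums were 7.92 to 221 and 8.92 to 191, carried by Il2ra (up to 125 TPM) and Cd40lg (up to 89.05), which activated CD8 T cells also express, with Foxp3 at most at 1.09 and Zbtb7b at most at 0.4, and for the red cell and platelet markers 0 to 21.5 and 0 to 1.27. S100a8 and S100a9 of the myeloid markers were at 0 in all libraries, and the ranges of the genotypes overlapped for each set. Members of the NK and gamma-delta set went opposite ways. The median of Cd163l1 was 0.64 TPM in cKO and 3.37 in WT, and that of Eomes 3.765 and 1.485. For the mean, limma called 0 genes of this set and edgeR called 1 higher. The part of all these markers in the differences below was not tested. In an earlier analysis of these data the 4 h library of mouse 3 and the 8 h libraries of mice 2 and 5 stood apart from their groups. Without these 3 libraries 232 genes were called, and 48 of the 53 steady genes were among them.

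Averaging over the times narrowed the error of this fit, which used the libraries of 1 mouse almost as independent ones. For genes that vary between mice, the SE of the mean can therefore be too small. The median standard error (SE) of a log2 difference was 0.0890 for the mean over 4 times, against 0.162, 0.179, 0.180 and 0.155 at 0, 4, 8 and 24 h. Accordingly, the genes called for the mean included smaller differences. Their median absolute log2 difference was 0.41, against 0.82, 0.74, 0.92 and 0.90 among the genes that the same limma fit called at 0, 4, 8 and 24 h. These single times called 67 (0.584%), 75 (0.654%), 24 (0.209%) and 11 (0.0959%) genes, and edgeR's quasi-likelihood test called 51 (0.445%), 94 (0.82%), 21 (0.183%) and 12 (0.105%). Of the 194 genes called for the mean, 107 were called at no single time and 87 at 1 or more.

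Most called genes were higher in cKO, 147 (1.28%) against 47 lower (0.41%), while the median log2 difference of all genes tested was −0.01. The difference had 1 sign at all 4 times for 182 of the 194, against 17.2% of all genes tested. The 3 mice of a genotype were apart from the other 3 in their mean log2 CPM for 191 of the 194, against 15.4%. Both shares are raised by the call itself and are given as a description. In bulk RNA of sorted cells, fewer cells with an RNA and less of it per cell cannot be told apart.

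Among the 53 steady genes called at no single time, 45 were higher in cKO (0.392%) and 8 lower (0.0697%). The mice of the genotypes were apart for 43 of the 45 (7.6% of all genes tested were apart and higher) and for all 8 (7.76% apart and lower). These shares too are raised by the call itself. For the mean, edgeR also called 51 of the 53, but from the same libraries and with no block for the mouse. It is therefore no independent check. A test on mouse means (limma), which accounts for the mouse and is described below, called 22 of the 53. Sorted by role after their values were seen, with no test of any role, the higher genes included surface receptors and glycoproteins (Cd96, Il4ra, Il2rb, Cd47, Cd8b1, Selplg, Gpr183, Gpr18, Ly6e, Ly6c2, Ly6a, Ms4a4b, Ms4a4c) and proteins of the actin cytoskeleton and of vesicle traffic (Lsp1, Tmod3, Hip1r, Rab27a). The 3 glycosyltransferases Gcnt4, B4galt1 and B4galnt1 and the transcription factor Tox were also higher. Differences were small, with 23 of the 45 under 0.32 on the log2 scale and a median of 0.30. Only 8 of the 53 reached 2-fold in either direction.

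Cd96, a receptor of T and NK cells that binds the nectin-like protein CD155, was steadily higher in cKO. Averaged over the 4 times, its level was 90.1, 86.0 and 87.6 TPM for cKO mice 1, 2 and 3 and 71.2, 65.3 and 68.9 TPM in WT mice 4, 5 and 6. Every cKO mouse lay above every WT mouse, and the libraries of the 2 genotypes were also apart at 3 of the 4 times, with an overlap at 24 h. The mean log2 difference was 0.33 (SE 0.0543, limma adjusted p = 0.000177), from 0.31, 0.38, 0.40 and 0.23 at 0, 4, 8 and 24 h, where the smallest single-time adjusted p was 0.0914.

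Tox, an HMG-box factor needed for T cell development and known from exhausted CD8 T cells, showed a difference of like size. Its levels were 27.3, 26.0 and 28.4 TPM in the cKO mice and 22.6, 20.2 and 20.5 TPM in the WT mice. The log2 difference was 0.34 (SE 0.0563, limma adjusted p = 0.000177), with 0.28, 0.40, 0.41 and 0.28 at the 4 times, none of them called (smallest adjusted p 0.0758). Tox levels were lower at 24 h than at 0 h in both genotypes, going from 45.9 ± 1.90 TPM at 0 h to 14.2 ± 0.826 at 24 h in cKO and from 36.9 ± 2.42 to 11.8 ± 1.57 in WT (SD, n = 3 each).

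Il4ra, the receptor chain shared by IL-4 and IL-13, had the most even difference of the 3. Before plating its level was 99.5, 93.0 and 97.9 TPM in cKO against 84.35, 82.0 and 80.2 in WT, and at 4 h at 104, 123 and 127 against 95.9, 96.1 and 95.6. At 8 h it was at 62.95, 56.1 and 60.5 against 51.6, 47.1 and 48.95, and at 24 h at 46.7, 48.8 and 43.8 against 42.0, 37.7 and 39.3. The genotypes did not overlap at any time, yet the log2 differences of 0.20, 0.25, 0.22 and 0.23 were each within 4 SE of 0 (SE 0.0763, 0.0763, 0.0825 and 0.0818) and none was called. Over the 4 times the difference was 0.23 (SE 0.0396, limma adjusted p = 0.000508).

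**Figure D1:**
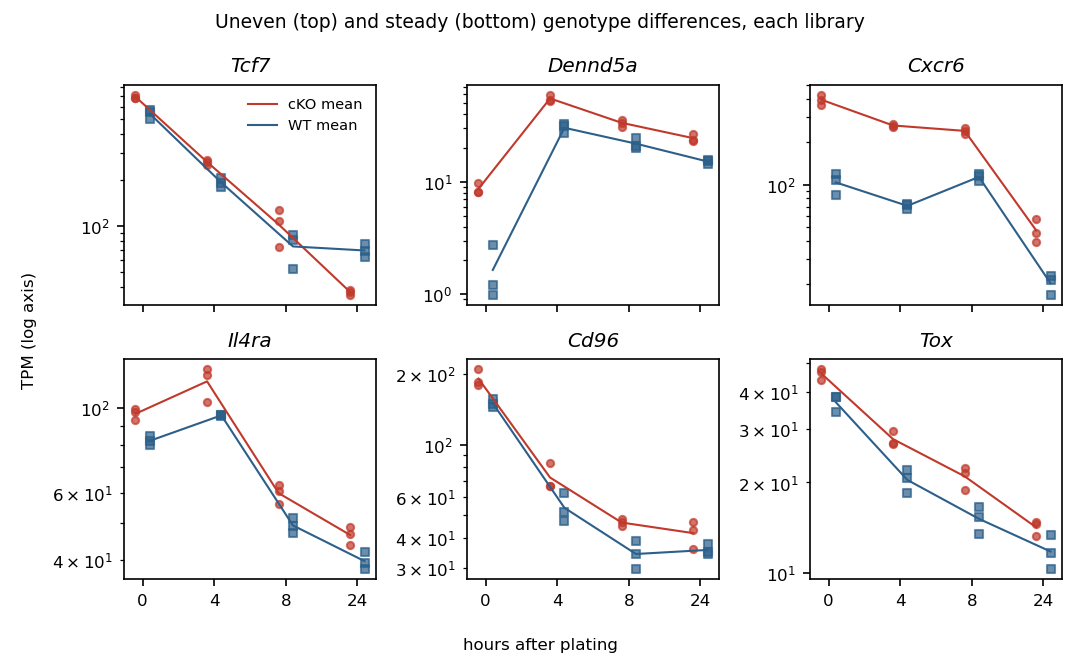
TPM (log axis) of each library against hours after plating (categories, not to scale) for 3 genes with an uneven genotype difference (top) and 3 with a steady one (bottom). Red circles are cKO mice, blue squares WT mice and lines join group means; for Il4ra the genotypes are apart at all 4 times, and for Tcf7 their order turns at 24 h.

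Lsp1, an actin-binding protein of leukocytes, and Ly6e, a GPI-anchored Ly6 protein, were abundant and slightly higher. Lsp1 averaged 410, 414 and 407 TPM in cKO against 352, 354 and 334 in WT (mean log2 difference 0.21, SE 0.0422, limma adjusted p = 0.00324). Ly6e averaged 589, 521 and 481 TPM in cKO against 435, 423 and 428 in WT (mean log2 difference 0.29, SE 0.0528, limma adjusted p = 0.00166). The mice of the genotypes were apart for both genes, by less for Ly6e, where cKO mouse 3 lay nearest to WT. Glipr2, a small protein of the Golgi membrane, was at 192, 173 and 161 TPM in the cKO mice and 152, 139 and 142 in the WT mice (log2 0.25, limma adjusted p = 0.00615).

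Larger differences were seen for Ly6c2, Ms4a4c, Gadd45g and Epsti1, with a wider spread in TPM among the cKO than among the WT mice. This was least marked for Epsti1. Ly6c2 encodes Ly6C, a surface marker of memory-phenotype and effector CD8 T cells. Its level was 695, 409 and 222 TPM in cKO mice 1, 2 and 3 and 84.95, 96.1 and 127 TPM in the WT mice. At every time mouse 1 was highest and mouse 3 lowest of the cKO mice, and mouse 3 lay above all WT mice at every time. The log2 difference was 2.42 (SE 0.403, limma adjusted p = 0.00324). Reads of Ly6c2 and its near-identical neighbour Ly6c1 could be split between them by the authors' counting, and Ly6c1 (log2 1.20, adjusted p = 0.0573) was not called.

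Ms4a4c, a membrane-spanning protein of T cells, averaged 72.1, 57.9 and 36.1 TPM in cKO against 20.2, 23.6 and 24.2 in WT (mean log2 difference 1.18, SE 0.205, limma adjusted p = 0.00459). Gadd45g, a stress-induced activator of p38 signalling in T cells, was at 71.0, 56.1 and 43.8 TPM against 28.9, 28.3 and 28.5 (log2 0.97, SE 0.169, limma adjusted p = 0.00429). Epsti1, an interferon-induced gene, was at 192, 179 and 156 TPM against 143, 119 and 128 (log2 0.58, SE 0.104, limma adjusted p = 0.00429). In all 3 genes mouse 1 was the highest and mouse 3 the lowest of the cKO mice, the order seen for Ly6c2.

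**Figure D2:**
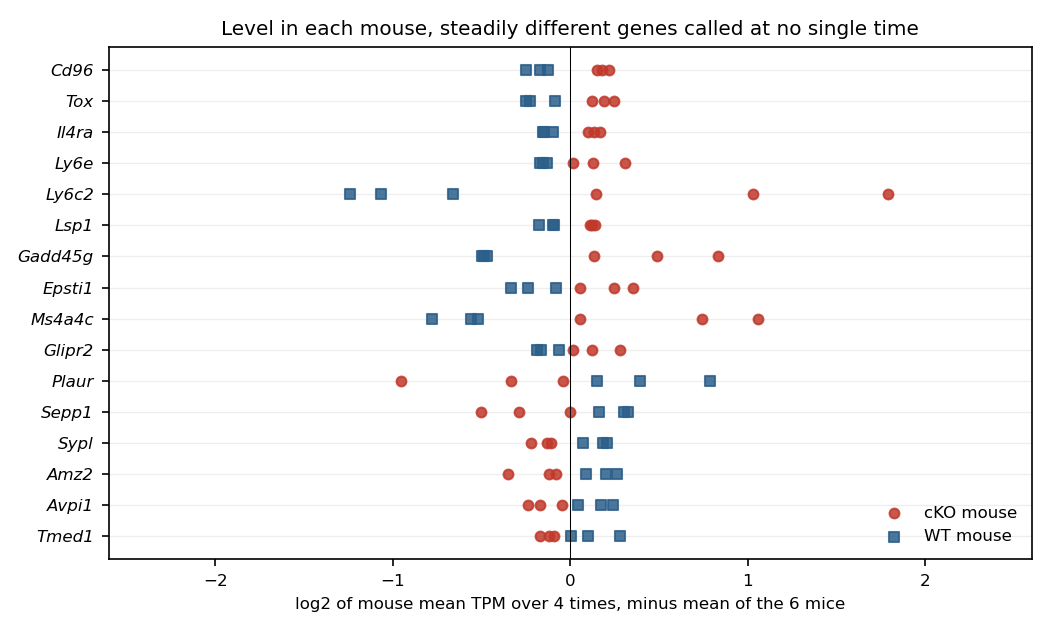
Level of each mouse for the 16 named steady genes called at no single time, as log2 of its mean TPM over the 4 times minus the mean of the 6 mice. Red circles are cKO and blue squares WT mice; the genotypes are apart for each gene because the naming rule required it, and the cKO mice of Ly6c2 spread over more than 1 log2 unit.

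The 8 lower genes were led by Plaur and Sepp1. Plaur, the receptor of urokinase, averaged 4.05, 6.22 and 7.63 TPM for cKO mice 1, 2 and 3, all below the 13.6, 8.70 and 10.3 TPM of the WT mice. Its log2 difference was −0.98 (SE 0.173, limma adjusted p = 0.000594), and the libraries of the genotypes were apart in log2 CPM at all 4 times. In TPM they overlapped at 4 h, where cKO mouse 3 (15.95) lay above WT mouse 5 (15.5). At 4 h Plaur narrowly missed a call (limma adjusted p = 0.0502), as did Gpr183, and no other of the 53 genes came closer at a single time.

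Sepp1, the selenium transport protein selenoprotein P, averaged 69.9, 81.2 and 99.0 TPM in cKO against 124, 122 and 111 in WT, also apart in log2 CPM at all 4 times (log2 −0.58, SE 0.0889, limma adjusted p = 0.000692). Sypl, a synaptophysin-like vesicle protein, had a log2 difference of −0.33, the metallopeptidase Amz2 −0.42, Avpi1 −0.41 and Tmed1, a protein of the early secretory pathway, −0.31 (limma adjusted p = 0.00953, 0.0120, 0.0300 and 0.0414). The remaining lower genes were scarce. Sox13, an HMG-box factor, averaged 0.296 ± 0.198 TPM in cKO against 0.802 ± 0.0505 in WT, and the glutamate receptor subunit Gria3 0.613 ± 0.0975 and 1.14 ± 0.0961 (SD over 3 mice).

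**Figure D3:**
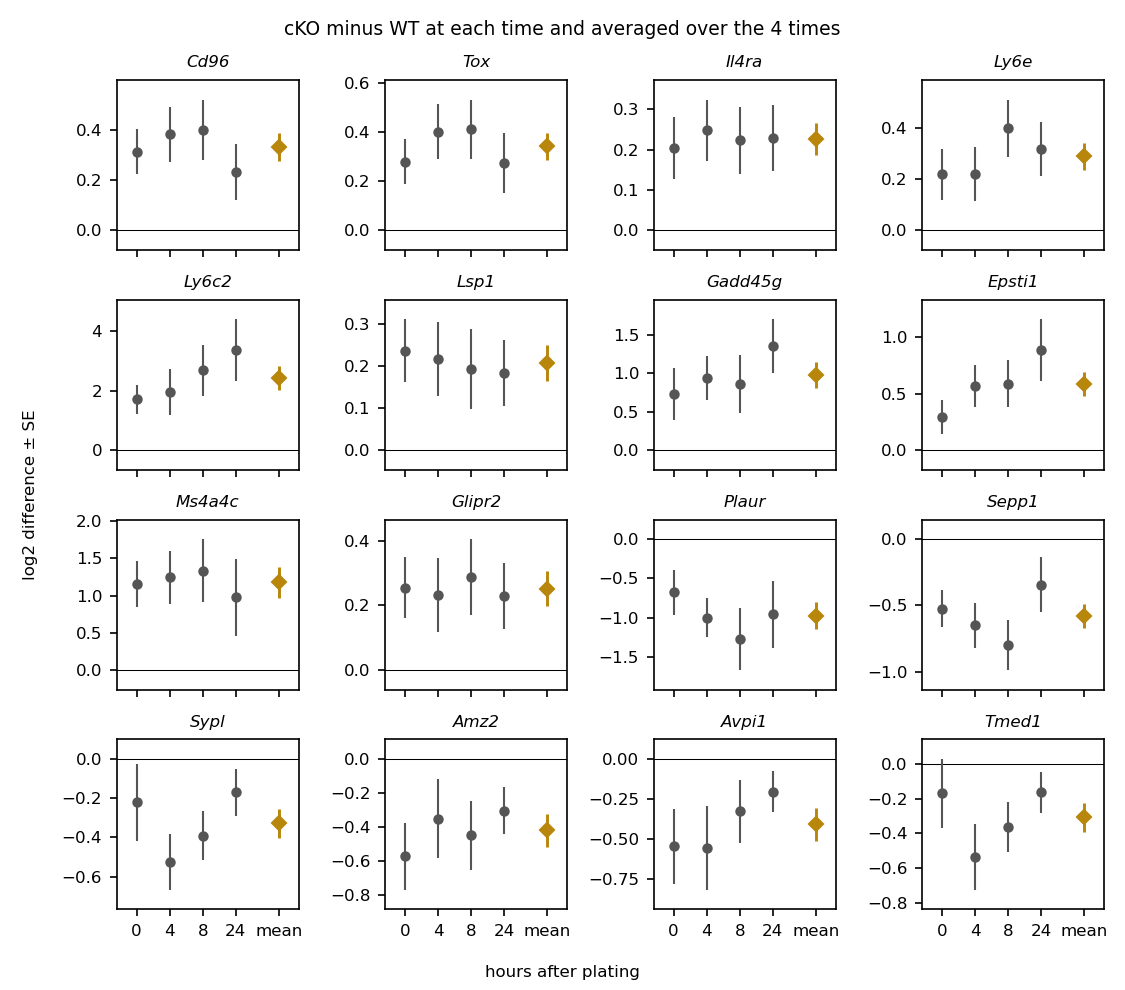
Log2 difference, cKO minus WT, with SE, at 0, 4, 8 and 24 h (grey) and averaged over the 4 times (gold diamond) for the 16 named steady genes called at no single time. Axes differ between genes; every mean has the shortest error bar of its panel.

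The 4 libraries of a mouse are not separate animals. Averaged over all genes, the correlation of libraries of 1 mouse was close to 0 (−7.03e-05), so the model used each library almost as an independent one. For single genes this correlation ranged from −0.25 to 0.39 (5th to 95th percentile), and it was over 0.3 for 20 of the 53. It was 0.90 for Ly6c2, 0.79 for Ms4a4c and 0.73 for Erdr1. A test on 1 mean value per mouse, 3 against 3 (limma on mouse means), called 153 genes (1.33%), among them 123 of the 194 and 22 of the 53. Cd96 (adjusted p = 0.000928), Tox (0.00473), Il4ra (0.00862), Plaur (0.0207) and Lsp1 (0.0224) passed it. Ly6c2 (0.230), Ms4a4c (0.301), Ly6a (0.428), Erdr1 (0.422), Epsti1 (0.204), Sepp1 (0.0998), Gadd45g (0.0826), Glipr2 (0.0929) and Ly6e (0.0530) did not. Nor did Cd8b1 (0.0864), Gpr183 (0.0594), Gpr18 (0.0844), Cd47 (0.0517), Selplg (0.0930), Il2rb (0.170), B4galnt1 (0.126), Tmod3 (0.145), Hip1r (0.0543), Crip1 (0.174), Avpi1 (0.0862), Tmed1 (0.129), Sox13 (0.0543), Jup (0.0567) and Nuak2 (0.0567).

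**Figure D4:**
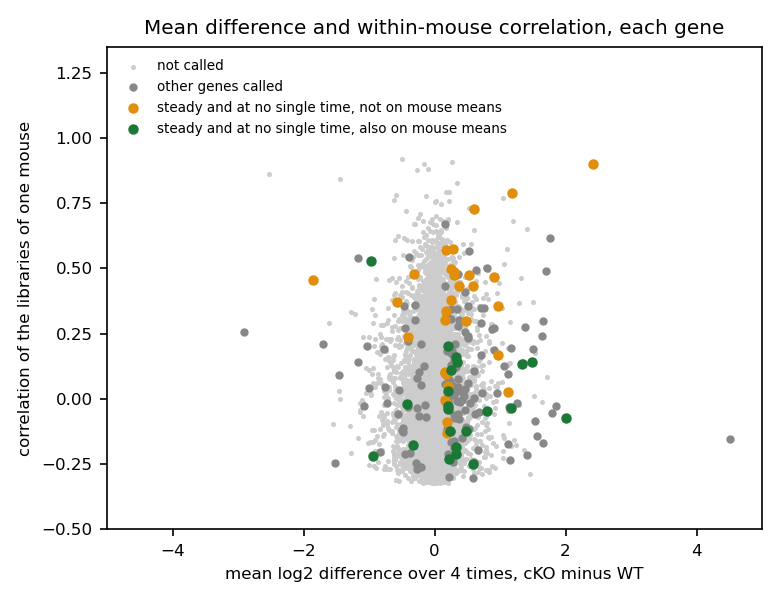
Correlation of the libraries of 1 mouse (y axis, from −0.5) against the mean log2 difference over 4 times, cKO minus WT (x axis), 1 point per gene tested. Green points are steady genes at no single time that the test on mouse means also called (22), orange points those it did not (31 of 53); the highest orange point is Ly6c2 at 0.90.

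Further members of the 53 were described by their range. Rab27a, which docks cytotoxic granules for release, was at 41.4, 47.2 and 49.1 TPM in the cKO mice and 40.6, 34.9 and 36.7 in the WT mice, so cKO mouse 1 lay close to WT mouse 4 (log2 0.25, limma adjusted p = 0.00857). Cd8b1, the beta chain of the CD8 co-receptor, averaged 926 ± 32.4 TPM in cKO against 821 ± 22.8 in WT (mean log2 difference 0.17, limma adjusted p = 0.0120). Gpr183, a receptor for oxysterols that positions lymphocytes, was at 22.9 ± 2.31 and 17.3 ± 1.71 TPM (log2 0.30, limma adjusted p = 0.0134). These values are mean ± SD over 3 mice of the average over the 4 times. With 1 mouse left out, adjusted p (limma) reached 0.235 for Cd8b1, which lost its call without mouse 1, 4 or 6, and 0.208 for Gpr183, which lost it without mouse 3, 5 or 6.

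Several further surface molecules and enzymes differed little. Il2rb, the beta chain of the IL-2 and IL-15 receptors, had a log2 difference of 0.15, the P-selectin ligand Selplg 0.17 and Cd47, the ligand of SIRP alpha, 0.19. The enzyme B4galnt1, which builds gangliosides, was at 0.15, the smallest of the 53, and B4galt1, a galactosyltransferase of N-glycans, at 0.21. Among enzymes, the purine oxidase Xdh reached 0.58 and Gcnt4, which branches O-glycans, 1.33, the latter from 1.14 ± 0.414 TPM in cKO and 0.427 ± 0.0549 in WT. At such levels few reads were counted, as also for Kcnc1, Jup, Fam71b, Nuak2, Prrg1 and Gm10451, whose levels averaged under 5 TPM over the libraries.

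Most of the steady higher genes had lower TPM late in culture than before it, as a comparison of means with no test. In WT, TPM at 24 h was below that at 0 h for 39 of the 45 (86.7%), against 53.5% of all genes tested, and under 0.5 of it for 32 (71.1%, against 28.5%). In cKO 41 of the 45 were lower at 24 h than at 0 h. The steady higher genes were also abundant, with a median of 61.0 TPM over the libraries against 12.6 TPM for all genes tested. The call itself selects on the SE, so the abundance of these genes is given as a description. Neither trait was particular to them. Of all 147 genes called higher, which include these 45, 111 (75.5%) were lower at 24 h than at 0 h in WT. For 94 (63.9%) TPM at 24 h was under 0.5 of that at 0 h, and their median over the libraries was 41.0 TPM for the 147. Of the 8 lower genes, 4 were lower at 24 h than at 0 h in WT, and the median of the 8 was 9.19 TPM.

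Another 30 steady genes were also called at 1 or more single times, 23 higher and 7 lower, and 12 of them reached 2-fold. Fasl, through which T cells kill by engaging FAS, averaged 11.6, 11.3 and 11.0 TPM in cKO and 0.348, 0.440 and 0.535 in WT. Every cKO library lay above every WT library of its time, and the log2 difference was 4.52 (SE 0.267, limma adjusted p = 1.32e-15). The actin regulator Coro2a (1.66), the ectonucleotidase Nt5e (1.64), the granule protease Gzmb (1.65) and the co-stimulatory ligand Cd86 (1.54) followed (log2; limma adjusted p = 2.66e-11, 6.78e-05, 0.0132 and 2.20e-05).

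Adhesion molecules stood among them as well. Amica1, a junctional adhesion molecule, averaged 53.6 ± 4.80 TPM in cKO against 32.8 ± 1.18 in WT (mean log2 difference 0.71, limma adjusted p = 2.11e-09), and Itgae, the CD103 integrin chain that binds E-cadherin, 88.2 ± 7.24 and 50.5 ± 4.13 (log2 0.72, limma adjusted p = 7.67e-08). Of the lower genes, the actin-associated Pdlim4 averaged 3.77 ± 0.590 TPM in cKO against 10.9 ± 1.64 in WT (mean log2 difference −1.46, limma adjusted p = 6.95e-05), the cyclophilin Ppic at −0.77 and the formin Inf2 at −0.46 on the log2 scale (limma adjusted p = 2.20e-05 and 0.000473). Itgb3, the beta chain of the vitronectin receptor, was at 1.53 ± 0.278 against 2.66 ± 0.344 TPM (log2 −1.03, limma adjusted p = 0.00119).

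The mean hid an uneven difference for 3 genes (0.0262% of genes tested) that the interaction of genotype and time called. Tcf7 had 695 ± 21.0 TPM in cKO against 540 ± 35.6 in WT at 0 h, but 37.2 ± 1.34 and 69.4 ± 7.23 at 24 h (SD, n = 3). Its log2 differences of 0.33, 0.40 and 0.42 at 0, 4 and 8 h and of −0.90 at 24 h averaged 0.07 (SE 0.0584, limma adjusted p = 0.750), and the interaction had an adjusted p of 2.57e-05 (limma F test). This average changed sign when 0, 4 or 8 h was left out.

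Dennd5a, a regulator of Rab GTPases, was called at all 4 times by limma and at 3 by edgeR, from 2.51 at 0 h to 0.56 at 8 h on the log2 scale (interaction adjusted p = 8.74e-05). Its level between 0 and 4 h went from 8.67 ± 0.947 to 55.2 ± 4.04 TPM in cKO and from 1.65 ± 0.953 to 30.3 ± 2.99 in WT. Cxcr6 had the smallest p of all genes for the mean (SE 0.0660, limma adjusted p = 3.61e-16), with a mean log2 difference of 1.503. Its log2 differences were 1.92, 1.84, 1.02 and 1.23 (interaction adjusted p = 0.0448), from 396 ± 34.8 TPM in cKO and 104 ± 17.4 in WT at 0 h to 47.5 ± 9.14 and 20.1 ± 3.04 at 24 h.

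Lef1, the relative of Tcf7, had a mean log2 difference of 0.19 (SE 0.0518, limma adjusted p = 0.0557), and Cd28 one of 0.01 (SE 0.0899, limma adjusted p = 0.985). Cd28 had 25.8 ± 3.18 TPM in cKO against 27.6 ± 2.87 in WT at 0 h and 36.6 ± 5.59 and 41.3 ± 1.78 at 24 h. The sign of its average changed with the setting, down to −0.10 without the 3 libraries that stand apart.

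Besides the steady genes, 54 genes were called for the mean and at no single time with a difference that at 1 or more times was too small, or of the opposite sign, to count as steady. The border is narrow, since Epsti1 (smallest share of the mean at 1 time 0.503) lies inside it and Cd3g (0.497), a chain of the CD3 complex, outside. Bcl2, the survival factor, differed by 0.18, 0.69, 0.51 and 0.52 at the 4 times (mean log2 0.47, limma adjusted p = 0.00654; 0.145 on mouse means). Il10ra, an IL-10 receptor chain, had −0.03 at 0 h and 0.60, 1.01 and 0.83 later (mean log2 0.60, limma adjusted p = 0.00368), and its interaction was not called. Of the lower genes that single times also called but that were not steady, the adenosine kinase Adk averaged 67.8 ± 4.98 TPM in cKO against 94.4 ± 3.71 in WT, with −0.42, −0.99, −0.47 and −0.04 at the 4 times (mean log2 −0.48, limma adjusted p = 3.28e-06). Polg, the mitochondrial DNA polymerase, had −0.51, −0.77, −0.05 and −0.15 (mean log2 −0.37, limma adjusted p = 0.000825). The metabolic enzymes Pkm (−0.16) and Ldhb (0.51) were called in opposite directions. Next to the threshold of the call itself, Ctnnbip1 (adjusted p = 0.0498) was called and Atp8b4 (0.0508) was not.

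Among gene lists written with earlier results of these data known, cytotoxic and memory-phenotype genes held the most called members. For every list here and below, the shares to compare, over all genes tested, were 1.28% called higher and 0.41% called lower. Of 18 effector and cytotoxic genes tested, 6 were higher and 0 lower (median log2 difference 0.30, against −0.01 for all genes tested). They were Fasl, Ctsw (0.47), a cathepsin of cytotoxic cells, the pore-forming Prf1 (0.63), Nkg7 (0.36), a granule protein, the chemokine Ccl5 (1.77) and Gzmb. Called at single times as well, none of the 6 belongs to the 53, and on mouse means 3 of the list passed. Ifng, at 302 and 176 TPM in cKO and WT, was not called (log2 0.47, limma adjusted p = 0.839).

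Of 15 memory-phenotype and Ly6 surface genes, 6 were higher and 0 lower (median 0.28), and 5 of these belong to the 53, namely Ly6e, Ly6c2, Crip1, Ly6a and Il2rb. The 6th was Plac8 (log2 0.80, limma adjusted p = 4.61e-05), and on mouse means only 1 of the list passed. Without mouse 1 the list had 3 calls, and without mouse 4, 5 or 6 it had 2. Cd44 (log2 0.21, limma adjusted p = 0.327) and Cxcr3 (−0.42, 0.425), both common markers of memory cells, were not called.

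**Figure D5:**
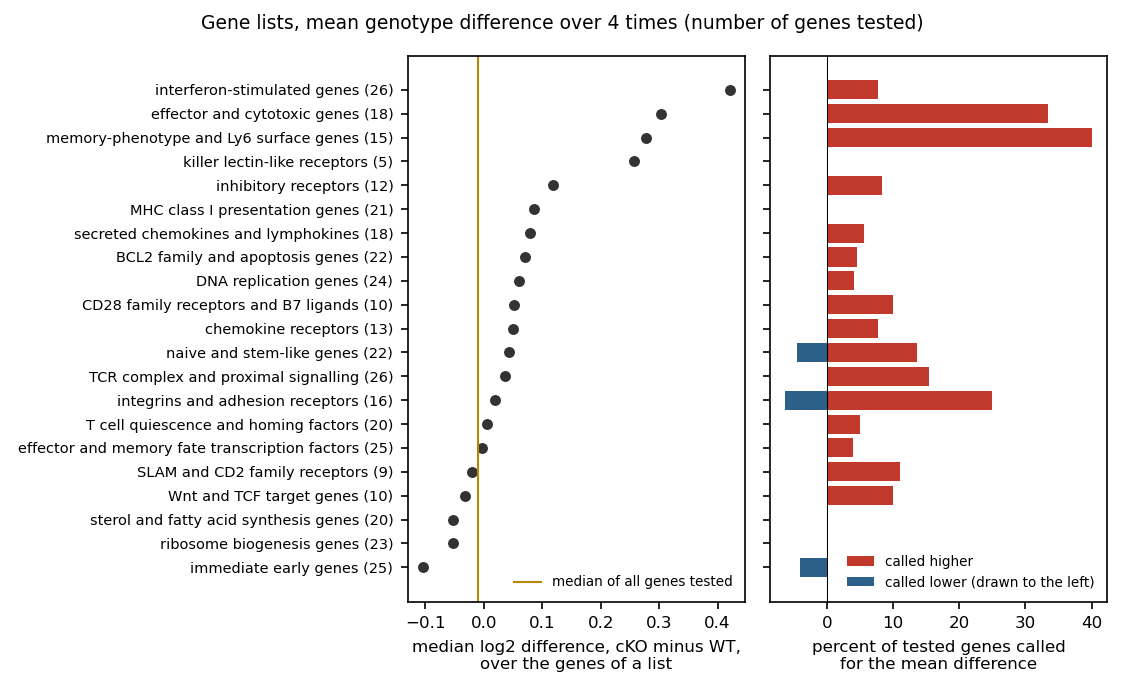
Median mean log2 difference over the genes of each list (left, gold line: median of all genes tested) and percent of its tested genes called higher (red) or lower (blue, drawn to the left) for the mean over 4 times. The interferon-stimulated genes have the highest median (0.42) and the memory-phenotype genes the highest percent called (6 of 15).

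Interferon-stimulated genes had the highest median of the lists (0.42), with 26 of 26 above 0 against 46.3% of all genes tested, but only 2 called higher, Usp18 (log2 0.90, limma adjusted p = 0.0197), which removes ISG15, and the RNA sensor Ifih1 (0.60, 0.0298). An unadjusted p under 0.05 was found for 14 of the 26, all higher, and edgeR called 5. Of all 11470 genes tested, 716 were higher and 628 lower at an unadjusted p under 0.05. On mouse means 4 were called, with Ifih1 (adjusted p = 0.0166) among them and Usp18 (0.0559) not. Without mouse 1, 4, 5 or 6, 0 were called, and without mouse 3, 7. Of 21 genes of MHC class I presentation, 18 (85.7%) lay above 0 (median 0.08), against 46.3% of all genes tested. Limma and edgeR called 0 of them, with 9 higher at an unadjusted p under 0.05.

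Genes of the T cell receptor complex and its proximal signalling had 4 of 26 higher and 0 lower (median 0.04), among them Cd8a (0.25), Cd3g (0.21) and Cd8b1 (0.17). On mouse means 3 of the list were called and Cd8b1 was not. Cd8a shows a mean that 0 h did not share, with −0.08 at 0 h and 0.32, 0.42 and 0.34 later. Of 22 naive and stem-like genes, 3 were higher (among them Tox and Bcl2) and 1 lower, the transcription factor Myb (log2 −1.07, limma adjusted p = 0.00131). Of 16 integrins and adhesion receptors, 4 were higher (Itgae, Cd2, Itgb2 and Selplg) and 1 lower (Itgb3). On mouse means Itgb2 (adjusted p = 0.0919) and Selplg (0.0930) were not called.

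Other lists held few calls. Of 23 ribosome biogenesis genes, 0 lay above 0 and limma and edgeR called 0 (median −0.05, 1 lower at an unadjusted p under 0.05). Of 20 genes of sterol and fatty acid synthesis, 4 lay above 0 and both called 0 (median −0.05, 5 lower at an unadjusted p under 0.05). Over all genes tested, 46.3% lay above 0 and 628 of 11470 were lower at an unadjusted p under 0.05. Of 25 immediate early genes, 1 was lower, Ier3, by 0.50 on the log2 scale (limma adjusted p = 0.0157), with −1.11 at 4 h and −0.91 at 8 h. Of 10 Wnt and TCF target genes, 1 was higher, the ubiquitin ligase Rnf43 (log2 1.12, limma adjusted p = 0.00429), at 0.914 TPM in cKO and 0.392 in WT. Of the markers of CD4 and regulatory T cells, Foxp3 was called higher (log2 1.57, limma adjusted p = 0.0489) at levels of at most 1.09 TPM in any library.

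To see how far a mean speaks for a time it did not use, each time was left out in turn. Genes called from the other 3 times had the same sign at the time left out in 136 of 156 (87.2%) for 0 h, 93 of 98 (94.9%) for 4 h, 151 of 161 (93.8%) for 8 h and 120 of 135 (88.9%) for 24 h. Over all genes tested these shares were 52.9, 56.1, 53.1 and 54.5%. The size at the time left out was a median of 0.66, 0.95, 0.78 and 0.41 of the mean of the other 3, smallest at 24 h. The mice were the same, so these times are not independent of the calls. Gzmc, Ifng, Nr4a2 and Ccl3, genes of activated cells, were among the 20 that turned sign at 0 h, and Tcf7 among the 15 that did so at 24 h.

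Promoters were searched for the letters that TCF1 and LEF1 prefer, CTTTGAT or CTTTGAA on either strand, in the 250 bases before the gene start (RefSeq, GRCm38.p6). Of the 53 steady genes 39 had a promoter in the table, and 2 held a match (5.13%), against 6.37% of the genes tested and 8.63% of all promoters there. Of the called higher genes 6 of 102 held one (5.88%) and of the lower genes 1 of 36 (2.78%). The share in the 53 was thus no higher than in all genes tested. Both promoters with a match are shown to let the letters be seen, 5′ to 3′ on the strand of the gene, with the match in capitals (in Cdk5rap1 it lies on the opposite strand and so appears reversed).
Gpr18, chr14:121915889-121916138, minus strand: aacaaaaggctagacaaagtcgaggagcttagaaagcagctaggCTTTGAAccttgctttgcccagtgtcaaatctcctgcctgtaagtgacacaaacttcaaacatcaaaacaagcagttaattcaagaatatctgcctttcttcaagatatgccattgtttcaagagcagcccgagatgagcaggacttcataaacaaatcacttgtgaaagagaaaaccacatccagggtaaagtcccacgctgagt
Cdk5rap1, chr2:154372720-154372969, minus strand: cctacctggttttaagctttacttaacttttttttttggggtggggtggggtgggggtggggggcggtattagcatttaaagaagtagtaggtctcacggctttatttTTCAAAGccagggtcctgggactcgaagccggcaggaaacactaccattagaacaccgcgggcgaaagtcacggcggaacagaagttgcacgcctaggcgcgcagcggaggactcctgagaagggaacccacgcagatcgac
Gpr18, a G protein-coupled receptor of lymphocytes, averaged 109 ± 6.04 TPM in cKO against 91.6 ± 1.92 in WT (mean log2 difference 0.21, limma adjusted p = 0.0331). Cdk5rap1, which modifies mitochondrial transfer RNAs, averaged 16.2, 18.7 and 11.6 TPM in cKO against 10.6, 10.7 and 10.5 in WT (mean log2 difference 0.53, limma adjusted p = 0.0448; 0.249 on mouse means).

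By position, the called genes lay on all chromosomes with more than 12 genes tested. Within 10 Mb of Tcf7 (chromosome 11, 52252371 to 52283014, minus strand, GRCm38), 3 of 157 genes tested were called (1.91%), near the 1.69% of all genes. Among them were Pdlim4 (54054928 to 54069014, minus strand) and Fam71b (46396559 to 46407982, plus strand). Among the steady genes named above, Cd96 lies on chromosome 16 (46035657 to 46120251, minus strand), Tox on chromosome 4 (6686353 to 6991557, minus strand), Il4ra on chromosome 7 (125552120 to 125579474, plus strand) and Plaur on chromosome 7 (24462484 to 24475968, plus strand). Ly6e (74955051 to 74959905, plus strand) and Ly6c2 (75108158 to 75111970, minus strand) both lie on chromosome 15, in the Ly6 gene cluster.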

How the data were processed

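The submitters' processing notes list STAR, RSEM and DESeq2 and the build mm10, with no version; how each was run is not given in the sources used here. The files hold, per the file headers, RSEM's expected count for each gene (an estimate of its reads) and the deposited TPM, which scales abundance per length to a fixed sum. FPKM was not used. Expected counts were rounded and tested in R 4.3.3 with limma 3.58.1 (voom, TMM scaling, edgeR's filter over 8 groups of 3 libraries, 8 group means, mouse as a random block, robust eBayes). The tested value was the mean of 4 cKO minus WT differences, two-sided. Single times were also tested with edgeR 4.0.16, and the interaction by an F test with 3 degrees of freedom. Alternatives were DESeq2 1.42.0, limma on mouse means, other scalings and filters, log2(TPM + 1), quality weights, and leaving out each mouse, each time or 3 libraries. The fit was also run on simulated data, with an outcome not reported here. In each run all genes had the same spread between mice, so it cannot speak for genes that vary more between mice.

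Named genes were, among the steady ones at no single time with at least 5 TPM, mice apart and a gene name, the 10 higher and 10 lower with the smallest p (6 lower met this), 5 and 5 also called at single times, genes called for the interaction, Tcf7, Lef1, Cxcr6 and Cd28, and up to 4 per list. Others named were chosen after their values were seen. The members and lists were chosen with earlier results of these data known. Replicates are separate mice per the labels. Molecules were not tagged. The error of the main test was the spread of libraries within groups of genotype and time, with libraries treated almost as independent. Only the test on mouse means used the spread over mice as its error. Positions come from GENCODE on GRCm38; of 11470 genes tested, 10749 were matched, and 185 of the 194 called. Some genes that this rule names are not reported here.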

Additional observations from a re-analysis of the deposited data

Results flagged for a closer look

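The genotype difference varied between times for 3 genes, by the limma F test of the interaction of genotype and time, with p adjusted over 11470 genes. Tcf7 had an adjusted p of 2.57e-05, with 3 cKO libraries above 3 WT libraries at 0 and 4 h and below them at 24 h. Dennd5a had an adjusted p of 8.74e-05, with its largest log2 difference at 0 h (2.51). Cxcr6 had an adjusted p of 0.0448, with log2 differences of 1.92 and 1.84 at 0 and 4 h and of 1.02 and 1.23 at 8 and 24 h. The causes were not tested.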

How the results depend on the processing

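Counts of called genes moved more than directions. Of 194 genes called for the mean (147 higher, 47 lower), DESeq2 gave 316 (242 and 74), the log2(TPM + 1) test 228 higher, and quality weights 74 lower. Without 4 h there were 99 (76 and 23), without 0 h 31 lower and without 24 h 93 higher. Leaving out 1 mouse gave 86 to 269 in all, 64 to 223 higher and 22 to 49 lower. The total was lowest without mouse 6 and highest without mouse 3. The steady genes called at no single time (53, with 45 higher and 8 lower) numbered 82 (70 higher) with log2(TPM + 1) and 5 lower with a mean of at least 5 CPM. Without 1 mouse they numbered 20 to 62, with 14 to 53 higher and 6 to 14 lower. Of the 53, 12 were still called for the mean without mouse 6, 20 without mouse 1, 22 without mouse 4, 20 without mouse 5, 44 without mouse 2 and 46 without mouse 3. Only 5 of them, Cd96, Tox, Il4ra, Gcnt4 and Plaur, stayed called in every alternative in which they were tested. The cause of these moves was not tested, and the settings that left out a mouse, a time or libraries also had fewer samples.

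With no replicate block the same 194 genes were called, but with a consensus correlation of −7.03e-05 the block had next to no weight, so this says nothing of stability. A single mean per mouse, which does account for the mouse, kept 123 of the 194 and 22 of the 53. The mean difference of Tcf7 turned negative without 0 h (−0.0171), 4 h (−0.0372) or 8 h (−0.0532). That of Cd28 did so with edgeR (−0.0046), quality weights (−0.0234), without the 3 libraries that stand apart (−0.0962), without 4 h (−0.0250) or 8 h (−0.0575) and without mouse 2, 3 or 5 (−0.0775 to 0.0725 over the 6 mice).

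With 3 mice per genotype, genes that vary between mice rest on few animals whatever the number of times.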
